A study of Mus musculus with 6 samples.

Results

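The AP-1 and EGR transcription factors examined here are the Fos family genes Fos, Fosb, Fosl1 and Fosl2, the Jun family genes Jun, Junb and Jund, the related factor Atf3, and the zinc finger genes Egr1 and Egr2. These 10 genes were taken by symbol, and a gene counted as measured where a probe set carried its symbol alone in the array annotation. By that rule 9 of the 10 were measured, among 22180 genes in all. The probe set of Fosl1 also carried the symbol of another gene, so no value is given for Fosl1.

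RNA came from cells of mouse gliomas that the labels call tumor-associated endothelial cells, isolated with magnetic beads through CD105 (endoglin, encoded by Eng) and exposed to glioma-conditioned medium during 12 h. The Tie2-Cre group was made of mice 1, 3 and 4, which had Tie2-Cre, Pfn1 floxed on both alleles (fl/fl) and Y129F Pfn1. The no Cre group was made of mice 6, 7 and 10, which carried the same floxed alleles and Y129F form without Cre. The series concerns phosphorylation of profilin-1, the actin-binding product of Pfn1. Tie2-Cre expresses the recombinase from the promoter of Tek, the gene of the endothelial receptor Tie2, which is also active in cells of the blood lineage. Each of the 6 arrays was 1 mouse, and n is 3 mice per group throughout.

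Values are log2 of the deposited intensities, and a change is the Tie2-Cre mean minus the no Cre mean, so that a change of 1 is a doubling. A gene was called changed where limma's Benjamini-Hochberg adjusted p over all 22180 genes lay under 0.05. At that threshold 2652 genes (12.0%) were called, 1061 higher (4.78%) and 1591 lower (7.17%), and the median change over all genes was -0.0042. Arrays correlated across genes with Pearson's r of 0.986 to 0.988 when their genotypes differed and 0.994 to 0.996 when they matched. Pfn1 averaged 12.41 ± 0.0045 with Tie2-Cre and 12.37 ± 0.026 without Cre (SD, n = 3 each), a change of 0.04 (SE 0.062, limma adjusted p 0.776). This value per array does not separate Y129F from unchanged Pfn1, and recombination of the floxed alleles was not measured. Xist lay at 6.06, 5.36 and 5.84 with Tie2-Cre, against 11.44, 11.44 and 11.16 without Cre, and the Y-linked Uty at 9.25, 9.41 and 9.16 with Tie2-Cre, against 4.97, 4.52 and 4.93 without Cre. Genotype and this sex-linked difference lay on the same arrays and cannot be told apart. Of 15 endothelial markers, 1 was higher (Flt1), 1 lower (Eng) and 13 not past the threshold. Either call ended without 1 of several mice, that of Eng without any 1 mouse but Tie2-Cre mouse 3 (adjusted p 0.0571 to 0.0827) and that of Flt1 as given below. The defining markers averaged 6.23 for Pecam1, 6.89 for Cdh5, 5.79 for Tek and 5.91 for Cldn5 over all 6 arrays, and the sorting antigen Eng 11.91. The 15 endothelial markers together had a mean log2 level of 6.79 to 6.96 with Tie2-Cre and 6.81 to 6.84 without Cre. The median of all genes was 7.08 to 7.14 per array, and Pecam1, Cdh5, Tek and Cldn5 averaged below that. The pericyte and fibroblast lists given below had higher mean levels in every array than the endothelial list, which includes Eng. Brightness varies between probe sets, and these levels do not settle which cells the sort held. Some markers of other cells differed between the groups and others did not, beside 12.0% of all genes called. Pdgfra stood in both the fibroblast and the astrocyte list. Of 12 pericyte and smooth muscle markers, 6 were higher and 0 lower, with a mean log2 level of 9.83 to 10.10 with Tie2-Cre and 9.35 to 9.41 without Cre. Of 12 fibroblast markers, 5 were higher and 1 lower (10.98 to 11.11 with Tie2-Cre, 10.27 to 10.30 without Cre), and of 12 macrophage markers, 0 were higher and 3 lower (6.69 to 6.78 with Tie2-Cre, 6.88 to 6.96 without Cre). Of 10 markers of astrocytes, progenitors and glioma cells, 3 were higher and 0 lower, and of 10 mesothelial and epithelial markers, 0 were higher and 3 lower. Not past the threshold were 6 pericyte, 6 fibroblast and 9 macrophage markers, and 7 in each of the lists of 10. The part of these markers in the results below was not tested, and in sorted bulk cells fewer cells of a type and less RNA per cell cannot be told apart.

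AP-1 is a pair of leucine zipper proteins, most often a Fos protein with a Jun protein, that binds DNA at the TPA response element (TRE). Fos proteins need a Jun partner to bind, Jun proteins can also pair with each other, and Atf3 can join Jun proteins and is often a repressor. EGR proteins bind GC-rich sites through zinc fingers. Most of these genes are immediate early genes: growth factor and stress signals switch them on within minutes, through kinases and the serum response factor SRF, and many of their transcripts are short-lived. In endothelial cells AP-1 and Egr1 are known as early responders to growth factors, injury and flow.

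None of the 9 measured genes passed the threshold (limma, adjusted p under 0.05), beside 12.0% of all genes. At an unadjusted p under 0.05 there were 3 of 9 (33.3%), namely Fos, Egr1 and Egr2, beside 24.9% of all genes. The groups of 3 arrays did not overlap for 4 of 9 (44.4%), namely Fos, Egr1, Egr2 and Atf3, beside 31.0% of all genes. Changes ran from -0.37 for Egr2 to 0.17 for Atf3, with 6 below 0 and 3 above, and 0 of the 9 reached 1.5-fold at any p. At an unadjusted p under 0.05 and 1.5-fold the count was therefore 0 of 9, beside 4.40% of all genes. The median change of the 9 was -0.09, and their median absolute change was 0.09, beside 0.11 over all genes. All 9 had a mean log2 of at least 5 and lay above the dimmest 33.3% of genes. By mean log2 over the 6 arrays, Fosb was brighter than 42.3% of all genes, Fos than 52.8%, Atf3 than 54.7% and Egr2 than 56.6%. Egr1 was brighter than 66.2%, and Jun, Junb, Jund and Fosl2 than 83.2% to 95.9%. Without detection calls these ranks do not show which genes lay above background. A p that misses the threshold does not show that the levels were equal.

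**Figure D1:**
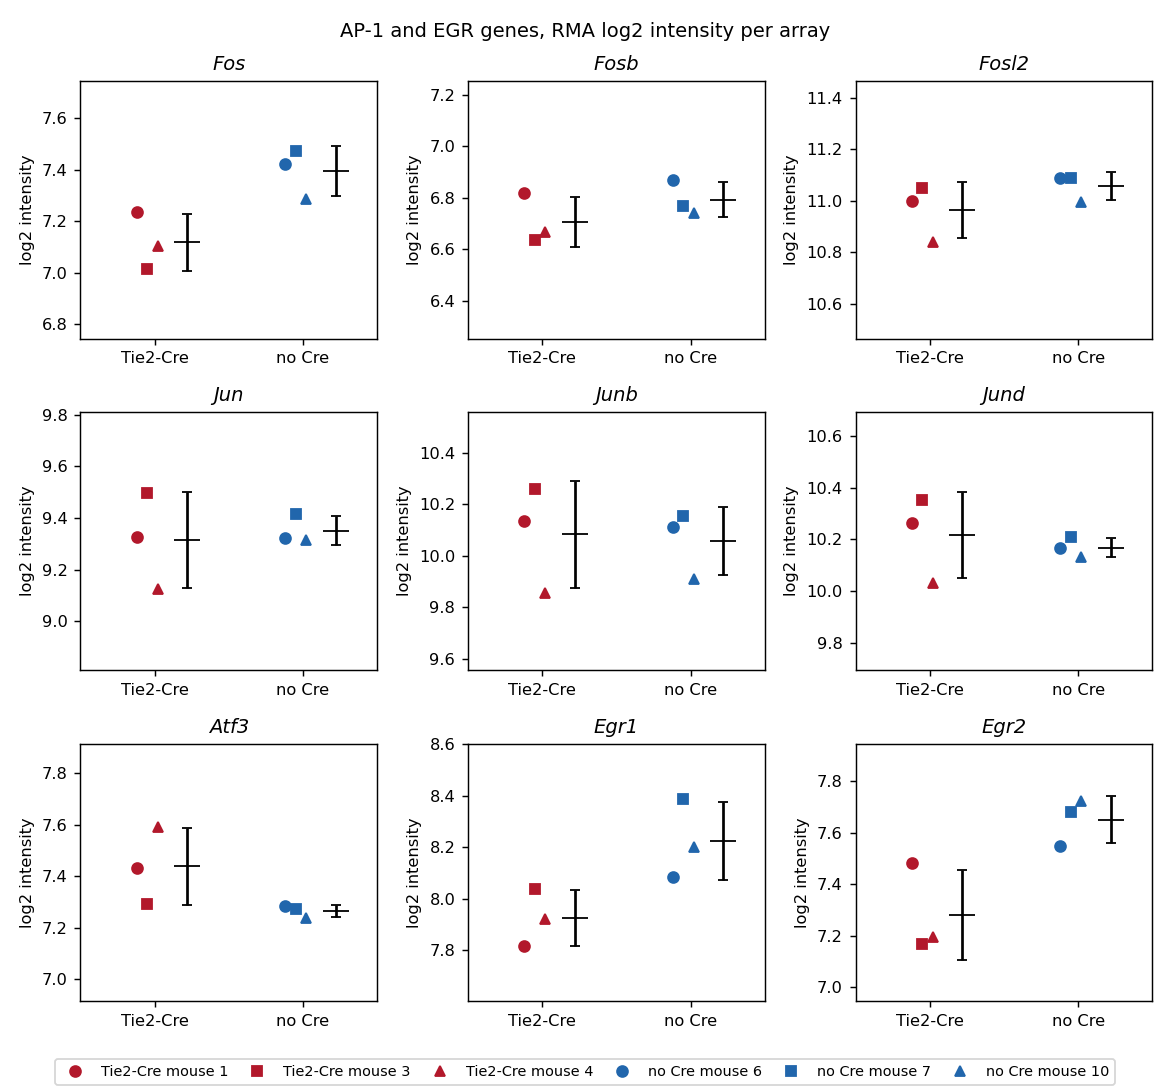
RMA log2 intensity of the 9 measured AP-1 and EGR genes in each array, with Tie2-Cre mice in red and no Cre mice in blue, a symbol per mouse, and bars for the mean and SD (n = 3). Every panel spans 1 log2 unit around its own centre. The arrays of the groups are apart for Fos, Egr1, Egr2 and Atf3 and overlap for the others.

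Fos, whose product is the founding Fos protein, lay at 7.24, 7.01 and 7.10 with Tie2-Cre (mice 1, 3 and 4), against 7.42, 7.47 and 7.29 without Cre (mice 6, 7 and 10). All 3 Tie2-Cre arrays were below all 3 no Cre arrays, by a gap of 0.051 log2 between the nearest of them. The change was -0.28 (SE 0.086, 95% confidence interval -0.47 to -0.08, limma unadjusted p 0.0121, adjusted p 0.0806), 1.21-fold lower. Without the dimmest 33.3% of genes its adjusted p was 0.0405, within 0.0405 to 0.22 over 14 alternatives. Its promoter, like those below, is shown to place the elements known to drive immediate early genes beside these values. Of the 9 measured genes, 8 (all but Egr1) had a promoter in a RefSeq table of GRCm38.p6, a window of 250 bases before to 50 after the start. Each line gives 5′ to 3′ the strand of the gene, with the matched letters in capitals. Fos (chr12:85473640-85473939, + strand) carried the core of the cyclic AMP response element (CRE), TGACG, at 66 bases before the start and once more upstream, and a TATAAA box at 33 before it.
Fos: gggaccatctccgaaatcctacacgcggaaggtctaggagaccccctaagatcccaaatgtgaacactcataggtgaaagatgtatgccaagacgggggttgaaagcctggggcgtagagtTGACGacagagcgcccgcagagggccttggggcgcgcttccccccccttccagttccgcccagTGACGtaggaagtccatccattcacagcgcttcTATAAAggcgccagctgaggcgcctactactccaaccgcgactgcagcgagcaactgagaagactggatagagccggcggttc

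Fosb encodes a Fos protein of the same early class. It lay at 6.82, 6.64 and 6.67 with Tie2-Cre, against 6.87, 6.77 and 6.74 without Cre, so that mouse 1 of the Tie2-Cre group lay within the no Cre range. The change was -0.09 (SE 0.078, adjusted p 0.573), with a confidence interval from -0.26 to 0.09. Fosl2 encodes Fra-2, a Fos protein that lacks the strong activation domain of Fos. It lay at 11.00, 11.05 and 10.84 with Tie2-Cre, against 11.09, 11.09 and 10.99 without Cre, again overlapping. Its change of -0.09 (SE 0.078, adjusted p 0.533) had an interval from -0.27 to 0.09, and the outer bounds of the intervals were 1.2-fold lower for Fosb and 1.21-fold lower for Fosl2. Single mice moved both small changes: that of Fosb was -0.14 without Tie2-Cre mouse 1 and -0.05 when either mouse 3 (Tie2-Cre) or mouse 6 (no Cre) was left out, and that of Fosl2 was -0.14 without Tie2-Cre mouse 3 and -0.03 without Tie2-Cre mouse 4.

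Jun, the partner gene of Fos, lay at 9.33, 9.50 and 9.12 with Tie2-Cre, against 9.32, 9.42 and 9.32 without Cre. The no Cre arrays all lay inside the Tie2-Cre range, and mouse 4 was the lowest and mouse 3 the highest of all 6. The change was -0.04 (SE 0.10, adjusted p 0.881, interval -0.27 to 0.20), and 0.06 without Tie2-Cre mouse 4. The Jun window (chr4:95052173-95052472, - strand) held TGACATCA, the form of the TRE through which Jun is known to act on its own gene, at 45 bases before the start.
Jun: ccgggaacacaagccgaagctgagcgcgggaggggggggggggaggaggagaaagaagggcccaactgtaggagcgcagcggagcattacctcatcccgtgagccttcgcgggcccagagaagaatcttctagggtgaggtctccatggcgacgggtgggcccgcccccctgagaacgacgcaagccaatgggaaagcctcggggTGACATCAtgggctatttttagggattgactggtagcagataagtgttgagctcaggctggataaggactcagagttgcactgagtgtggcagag

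Junb encodes a Jun protein that activates more weakly than Jun and often opposes it. It lay at 10.14, 10.26 and 9.86 with Tie2-Cre, against 10.11, 10.15 and 9.91 without Cre, with the no Cre arrays again inside the Tie2-Cre range. The change was 0.02 (SE 0.12, adjusted p 0.931, interval -0.24 to 0.29), and its sign depended on the mice: -0.06 without mouse 3 of the Tie2-Cre group and -0.05 without mouse 10 of the no Cre group. Its window (chr8:84978699-84978998, - strand) held TGACG at 106 bases before the start and TATAAA beginning at the annotated start itself.
Junb: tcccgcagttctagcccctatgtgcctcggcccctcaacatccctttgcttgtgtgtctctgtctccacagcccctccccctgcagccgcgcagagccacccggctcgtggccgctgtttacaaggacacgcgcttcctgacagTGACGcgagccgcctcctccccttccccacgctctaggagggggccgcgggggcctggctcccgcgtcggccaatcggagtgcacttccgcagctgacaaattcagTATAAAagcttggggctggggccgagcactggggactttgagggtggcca

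Jund, the Jun family gene known for steady rather than induced expression, lay at 10.26, 10.35 and 10.03 with Tie2-Cre, against 10.17, 10.21 and 10.13 without Cre. The groups overlapped, and the change was 0.05 (SE 0.092, adjusted p 0.812, interval -0.17 to 0.26), or -0.02 without Tie2-Cre mouse 3. A dimmer probe set of Jund, not used in the fit, lay at 7.60, 7.53 and 7.68 with Tie2-Cre and at 7.43, 7.35 and 7.54 without Cre, a difference of 0.17, where mouse 3 and mouse 10 just overlapped.

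Atf3, the stress-induced member, was the only 1 of the 9 whose 3 Tie2-Cre arrays all lay above the no Cre arrays. It lay at 7.43, 7.29 and 7.59 with Tie2-Cre, against 7.28, 7.27 and 7.24 without Cre. The nearest arrays were 0.007 log2 apart, and the no Cre arrays were much closer together (SD 0.024) than the Tie2-Cre arrays (SD 0.15). The change of 0.17 (SE 0.087, interval -0.03 to 0.37) did not pass (limma unadjusted p 0.0808, adjusted p 0.27). It was 0.10 without Tie2-Cre mouse 4 and 0.25 without Tie2-Cre mouse 3, and passed in neither case (adjusted p 0.527 and 0.126).

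Egr1, the growth factor and flow response gene, lay at 7.82, 8.04 and 7.92 with Tie2-Cre, against 8.08, 8.39 and 8.20 without Cre. The groups did not overlap, with Tie2-Cre mouse 3 and no Cre mouse 6 0.048 log2 apart. The change was -0.30 (SE 0.098, interval -0.52 to -0.07, unadjusted p 0.0158, limma adjusted p 0.0953), 1.23-fold lower, and its adjusted p ranged from 0.0508 to 0.25 over 14 alternatives.

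Egr2, known for its part in myelination and in limiting immune activation, had the largest difference of the 9. It lay at 7.48, 7.17 and 7.19 with Tie2-Cre, against 7.55, 7.68 and 7.72 without Cre. All Tie2-Cre arrays were below all no Cre arrays, and mouse 1, the highest with Tie2-Cre, lay 0.068 log2 below mouse 6. The change was -0.37 (SE 0.10, interval -0.60 to -0.14, unadjusted p 0.00623), 1.29-fold lower, with a limma adjusted p of 0.0514, just outside the threshold. It passed without Tie2-Cre mouse 1 (-0.47, adjusted p 0.0189), with a minimum mean log2 of 5 (0.0389), without the dimmest 33.3% of genes (0.025), with centred arrays (0.0451), with eBayes with trend and robust (0.0273) and with array weights (0.0478). Over 14 alternatives its adjusted p ran from 0.0189 to 0.155. The exact permutation test, two-sided, gave 0.1 for each of Fos, Atf3, Egr1 and Egr2, the smallest that 3 mice against 3 allow. The RefSeq table held 5 windows of Egr2, and 4 of them held a CArG box, the site of SRF. The window shown (chr10:67537619-67537918, + strand) had it at 72 bases before the start, with TGACG at 111 and, on the opposite strand (CGTCA), at 55. Those with the box at 73 and 133 bases before the start held it at the same spacing from both TGACG matches. These windows may therefore share the same box, and the 4 are not counted as separate sites.
Egr2: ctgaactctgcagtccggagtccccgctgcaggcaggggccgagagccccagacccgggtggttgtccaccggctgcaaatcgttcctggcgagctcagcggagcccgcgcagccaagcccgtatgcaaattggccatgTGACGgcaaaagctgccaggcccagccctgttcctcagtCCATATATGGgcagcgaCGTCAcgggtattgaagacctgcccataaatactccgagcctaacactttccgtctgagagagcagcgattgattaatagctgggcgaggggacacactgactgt

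The motifs were searched on both strands: the whole CRE (TGACGTCA), its core (TGACG), which the whole CRE contains, the TRE (TGANTCA), its Jun form (TGACATCA), the EGR site (GCGNGGGCG), the CArG box and TATAAA. Of the 8 genes with a window, 5 held the CRE core (Fos, Fosb, Junb, Atf3 and Egr2), which 20.8% of all 32851 windows hold. A gene was counted where any of its windows matched, and Egr2 had 5, while the shares are of single windows, so the counts and shares are not like for like. The whole CRE (1.79% of all windows) and the TRE (7.81%) were in none of them. Among these 8, the EGR site was in Fosb and Fosl2 (5.55% of all windows), the CArG box in Egr2 alone (1.63%), the Jun form in Jun alone (3.62%) and TATAAA in Fos and Junb (13.6%). Egr1 had no window and was not searched for any of them. Jund held none of these letters. A match is not evidence of binding, and elements outside the windows were not looked at.

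**Figure D2:**
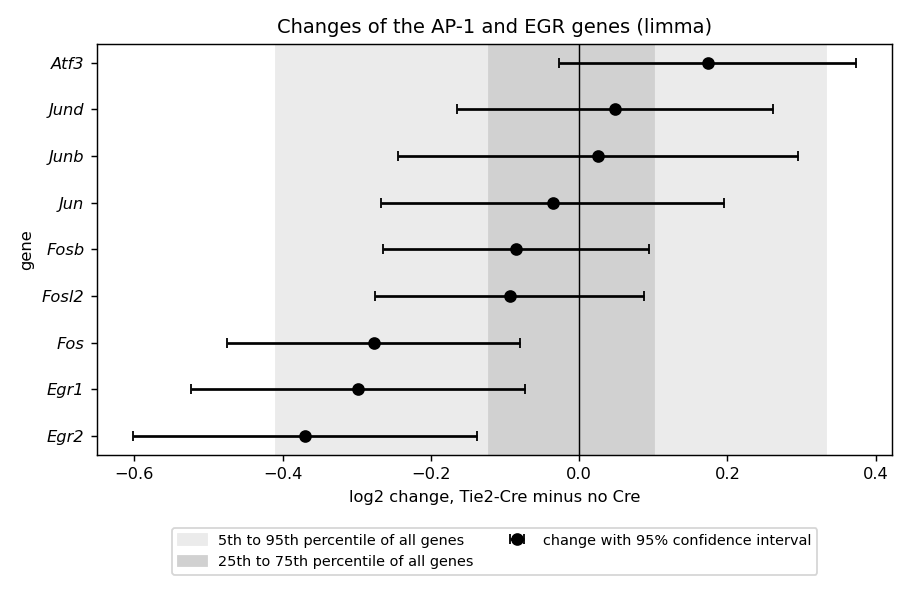
Log2 change (Tie2-Cre minus no Cre, horizontal axis) of the 9 measured genes with the 95% confidence interval of the limma fit, ordered from Atf3 (0.17) at the top to Egr2 (-0.37) at the bottom. Dark grey marks the middle of the changes of all genes (25th to 75th percentile, -0.12 to 0.10) and light grey the 5th to 95th percentile (-0.41 to 0.33), and all 9 points lie within the light band.

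By family, the Jun genes had changes between -0.04 and 0.05, the Fos genes between -0.28 and -0.09, and both EGR genes lay at -0.30 and -0.37. All 9 lay within the 5th to 95th percentile of the changes of all genes (-0.41 to 0.33). Intervals of Fos, Egr1 and Egr2 did not include 0, but overlapped those of the Jun genes, and differences in change between members were not tested. At its outer bound the interval allowed a level up to 1.52-fold lower for Egr2, 1.44-fold lower for Egr1 and 1.39-fold lower for Fos, while for Jun it allowed up to 1.2-fold lower or 1.15-fold higher.

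The mice of a group differed more for some genes than the groups did. In the Tie2-Cre group, mouse 3 was the highest and mouse 4 the lowest for Jun, Junb, Jund and Fosl2, an order held by 16.2% of all genes. Their ranges over the 3 mice were 0.37 for Jun, 0.40 for Junb, 0.32 for Jund and 0.21 for Fosl2. Atf3 had the opposite order, with mouse 4 the highest and mouse 3 the lowest (3557 of the 22180 genes). Fos, Fosb and Egr2 were highest in mouse 1 and lowest in mouse 3 (16.4% of all genes), and Egr1 alone was highest in mouse 3 and lowest in mouse 1 (16.9%). In the no Cre group, mouse 10 was the lowest for 7 of the 9 genes, beside 38.9% of all genes, the exceptions being Egr1 and Egr2. The SD was larger with Tie2-Cre than without Cre for 8 of the 9 (0.097 to 0.21 with Tie2-Cre, 0.024 to 0.15 without Cre), beside 55.9% of all genes, Egr1 being the exception. With 3 mice a group these orders are descriptions of these arrays.

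**Figure D3:**
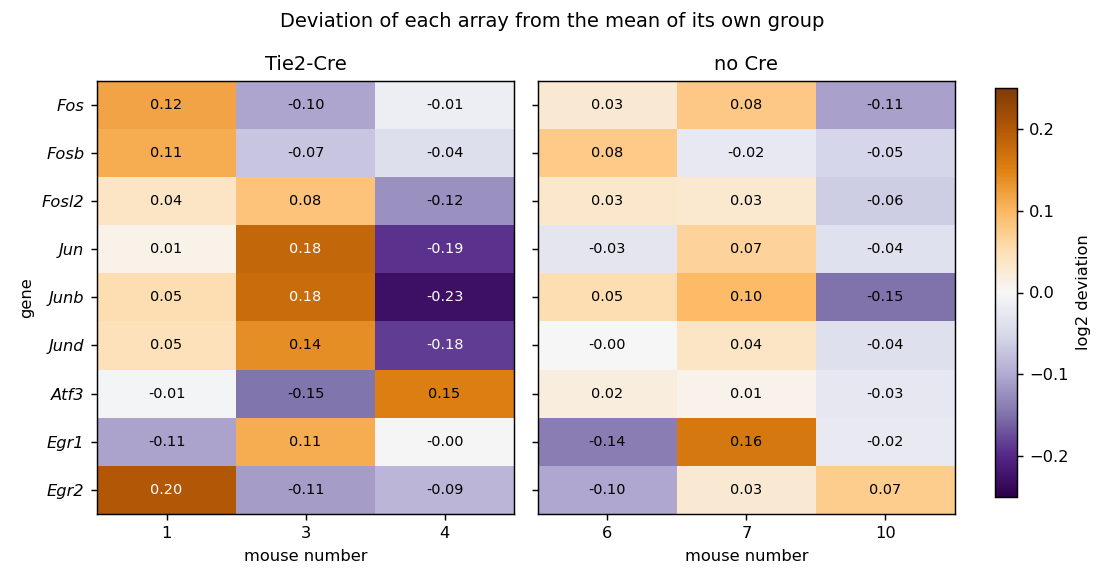
Deviation of each array from the mean of its own group (log2, colour and printed value) for the 9 measured genes in rows, with the Tie2-Cre mice on the left and the no Cre mice on the right. Tie2-Cre mouse 3 is high and mouse 4 low for Fosl2, Jun, Junb and Jund, and the reverse holds for Atf3.

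The genes whose profile over the 6 arrays lay closest to that of Egr2, each centred on its own mean, were Sass6, P3h4, Fam83h, Tasp1 and Mcfd2, at a root mean square distance of 0.05 to 0.058 log2. Their changes were -0.37, -0.32, -0.36, -0.35 and -0.35, and Sass6, Tasp1 and Mcfd2 passed the threshold (limma adjusted p 0.0279, 0.0271 and 0.0262). All 3 calls ended when mouse 3, 4, 7 or 10 was left out, and the call of Tasp1 also without mouse 6 (adjusted p 0.0588 to 0.096 over the 3 genes). Without mouse 1 of the Tie2-Cre group P3h4 and Fam83h passed too (limma adjusted p 0.0454 and 0.0257). The closest to Atf3 were Lce1f, Esyt3, Cd200r4, Prmt8 and Peli2, at 0.019 to 0.03 log2, with changes of 0.17 to 0.18 and none past the threshold. These distances compare 6 arrays that share their genotype split, so similar changes and p follow from the way these genes were chosen.

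Factors related to AP-1 and EGR had members called in each direction. Among the 17 measured genes, 4 passed as higher and 2 as lower, with a median change of 0.03 (all genes, -0.0042), and 35.3% were called beside 12.0% of all genes. The 12.0% includes dim genes, while this list averaged 8.54 to 8.56 with Tie2-Cre and 8.46 to 8.55 without Cre. Neither this list nor those below were matched to all genes in brightness. They were written with earlier results of these data known, and with 17 genes nothing is read from the gap. Atf7, a relative of the Jun partner Atf2, lay at 10.53, 10.66 and 10.59 with Tie2-Cre, against 10.14, 10.24 and 10.20 without Cre, a rise of 0.40 (SE 0.070, limma adjusted p 0.00873). Jdp2, the Jun dimerization protein that represses AP-1, lay at 9.42, 9.41 and 9.68 with Tie2-Cre, against 8.97, 8.94 and 9.07 without Cre, a rise of 0.51 (SE 0.092, adjusted p 0.0101). Both had every Tie2-Cre array above every no Cre array. The leucine zipper repressor Nfil3 rose by 0.64 (SE 0.12, adjusted p 0.0104). Creb1, which binds the CRE, was the other higher gene (0.29, SE 0.066, adjusted p 0.0275), chosen once its values were known. Leaving out any 1 mouse but Tie2-Cre mouse 4 ended its call (adjusted p 0.0747 to 0.0933). The lower genes were the small Maf factors Maff (-0.45, SE 0.11, adjusted p 0.0342) and Mafk (-0.43, SE 0.12, adjusted p 0.049), which lack an activation domain. Leaving out any 1 mouse but Tie2-Cre mouse 4 ended these calls (adjusted p 0.0574 to 0.109 for Maff and 0.0991 to 0.134 for Mafk). Egr3, which like Egr2 had a negative change, lay at 7.49, 7.07 and 7.07 with Tie2-Cre, against 7.43, 7.55 and 7.36 without Cre, and did not pass (-0.23, adjusted p 0.295). Without Tie2-Cre mouse 1, its highest array in that group, it passed (-0.37, limma adjusted p 0.0443). It was named after its values were seen.

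Of 18 upstream kinases, SRF and partner factors, 0 were higher, 1 lower and 17 not past, with a median change of -0.04. The share called was 5.56%, beside 12.0% of all genes, and with 18 genes nothing is read from that gap. The lower gene was Map2k1, the kinase MEK1 of the ERK cascade, at 9.90, 9.83 and 9.68 with Tie2-Cre, against 10.07, 10.15 and 10.23 without Cre (-0.35, SE 0.082, limma adjusted p 0.0315). Leaving out any 1 mouse but Tie2-Cre mouse 1 ended its call (adjusted p 0.0547 to 0.109). Srf, named after its values were seen, had a change of 0.21 (SE 0.082, adjusted p 0.162). Of 7 regulators of Jun and Fos protein stability and activity, none passed in limma, 0 of them in either direction, with changes from -0.22 to 0.15 and 1 of them (Csnk2a1, a kinase subunit, named after its values were seen) at an unadjusted p under 0.05 (0.0267), beside 12.0% and 24.9% of all genes at these thresholds. Protein level and phosphorylation, by which AP-1 is also set, were not measured.

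Other immediate early genes changed in both directions. Of 29 measured, 7 were higher, 4 lower and 18 not past (37.9% called), with a median change of 0.07, beside 12.0% called, 4.78% higher and 7.17% lower over all genes. Nr4a1, an orphan nuclear receptor gene, lay at 9.86, 9.82 and 9.32 with Tie2-Cre, against 8.29, 8.09 and 8.48 without Cre, a rise of 1.38 (SE 0.16, limma adjusted p 0.0013). Its relative Nr4a3 rose by 1.76 (SE 0.21, adjusted p 0.00151) and Npas4, an early gene known from neurons, by 0.79 (SE 0.093, adjusted p 0.00151). Tiparp, an ADP-ribosyltransferase gene and target of the aryl hydrocarbon receptor, lay at 7.91, 7.90 and 7.97 with Tie2-Cre, against 10.12, 10.04 and 9.92 without Cre, and fell by 2.10 (SE 0.076, adjusted p 6.45e-06). The survival gene Ier3 fell by 0.94 (SE 0.11, adjusted p 0.00148) and the kinase gene Sgk1 fell by 0.76 (SE 0.092, adjusted p 0.00161).

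Genes known as AP-1 targets were called in 13 of 25 cases (52.0%), 4 higher and 9 lower with 12 not past, and a median change of -0.19. Over all genes 12.0% were called, 4.78% higher and 7.17% lower. The list was written with earlier results of these data known, so its share called is a description only. Serpinb2, a plasminogen activator inhibitor, lay at 9.90, 10.05 and 9.33 with Tie2-Cre, against 12.49, 12.63 and 12.78 without Cre, and fell by 2.87 (SE 0.18, limma adjusted p 7.21e-05). The EGF receptor ligand gene Ereg fell by 1.48 (SE 0.074, adjusted p 2.41e-05) and the heme oxygenase gene Hmox1 fell by 1.40 (SE 0.087, adjusted p 7.39e-05). The urokinase receptor gene Plaur lay at 10.50, 10.45 and 10.53 with Tie2-Cre, against 9.74, 9.79 and 9.99 without Cre, a rise of 0.65 (SE 0.082, adjusted p 0.00199). The membrane metalloproteinase gene Mmp14 rose by 0.56 (SE 0.068, adjusted p 0.00161) and the cyclin gene Ccnd1 by 0.54 (SE 0.070, adjusted p 0.00223). Fgf7, a growth factor gene chosen once its values were known, was also higher (0.39, adjusted p 0.043), a call that ended without any 1 mouse but Tie2-Cre mouse 4 (adjusted p 0.11 to 0.127). The called targets differed in direction. When 1 mouse was left out, 3 to 4 targets were higher and 6 to 8 lower.

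Of 20 measured EGR targets, 3 were higher, 3 lower and 14 not past (30.0% called, beside 12.0% of all genes), with a median change of 0.08. The heparanase gene Hpse lay at 6.40, 6.26 and 5.93 with Tie2-Cre, against 7.78, 7.84 and 7.66 without Cre, and fell by 1.56 (SE 0.12, limma adjusted p 0.000215). Tissue factor (F3), which starts coagulation, fell by 0.50 (SE 0.064, adjusted p 0.00209) and the prostaglandin E synthase gene Ptges fell by 0.43 (SE 0.10, adjusted p 0.0312). Pdgfa, a growth factor gene that Egr1 is known to activate, lay at 9.64, 9.71 and 9.80 with Tie2-Cre, against 9.31, 9.26 and 9.22 without Cre, a rise of 0.45 (SE 0.071, adjusted p 0.0054). Higher were also Mmp14, which stands in both target lists, and the VEGF receptor gene Flt1 (1.11, SE 0.25, adjusted p 0.0272). Leaving out no Cre mouse 6, 7 or 10 ended the call of Flt1 (adjusted p 0.0655 to 0.0909) and of Ptges, whose call also ended without Tie2-Cre mouse 1 (0.0698 to 0.0943). Nab1 and Nab2, the EGR co-repressor genes that EGR proteins themselves induce, were named after their values were seen and did not pass, with changes of 0.19 (adjusted p 0.194) and 0.00 (adjusted p 0.984). A fit that also held all probe sets with several or no listed symbols ended the calls, among the genes named above, of Creb1, Maff, Mafk, Map2k1, Fgf7, Flt1, Ptges, Eng, Sass6, Tasp1 and Mcfd2 (adjusted p 0.0579 to 0.117). Some pericyte markers (6 of 12 higher), some macrophage markers (3 of 12 lower, 9 not past) and Xist (-5.59) differed on the same arrays as these lists, and their part was not tested.

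**Figure D4:**
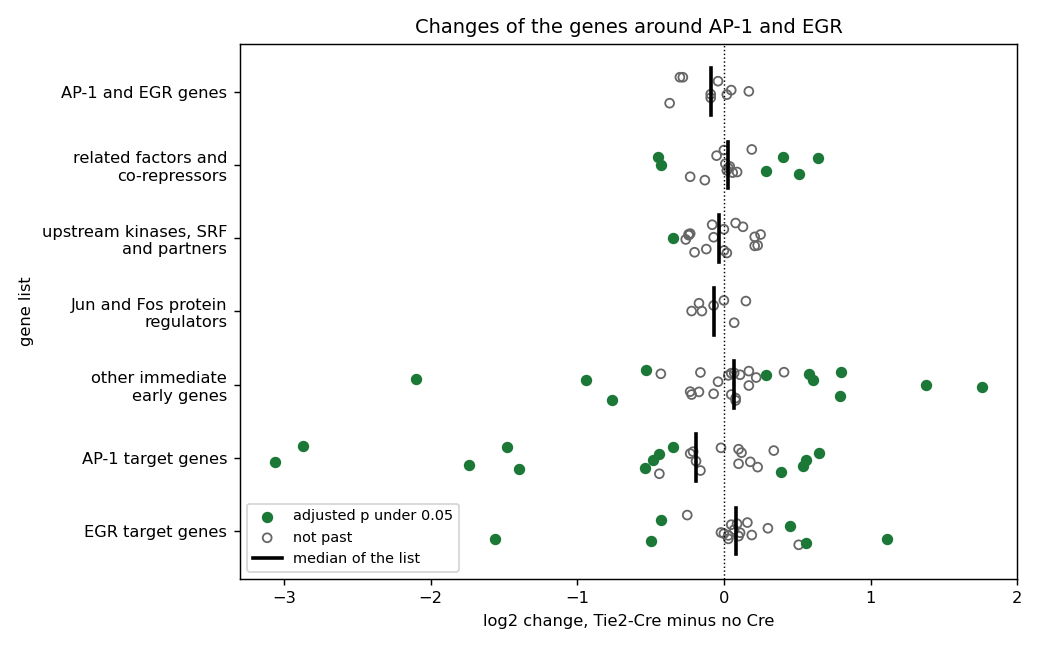
Log2 change (Tie2-Cre minus no Cre) of each measured gene in the AP-1 and EGR set and in 6 lists around it, with filled points for a limma adjusted p under 0.05, open points for genes not past the threshold, and a bar for the median of each list. The 9 AP-1 and EGR genes are all open and lie between -0.37 and 0.17. AP-1 targets (25 genes) run from -3.06 to 0.65 and other immediate early genes (29 genes) from -2.10 to 1.76. A range widens with the number of genes, and the lists were written with earlier results of these data known, so the ranges are not compared.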

How the data were processed

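RNA of cells from 6 mice was measured on Affymetrix Mouse Gene 2.0 ST arrays, 3 mice with Tie2-Cre and 3 without Cre. The authors deposited linear intensities (5.13 to 17822) from RMA, run in Affymetrix Expression Console, per the labels. RMA includes background correction and quantile normalization. Its version and a genome build are not given in the sources used here, and detection calls were not used. Background may understate the change of a dim gene, which was not measured here. The number of arrays limits the precision (median SD over genes 0.1 log2 with Tie2-Cre and 0.089 without Cre).

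Of 41345 probe sets, 23521 had 1 symbol in the array annotation, 1814 several and 16010 were not listed. The probe set with the highest mean over all arrays stood for a gene, which set 1341 aside and left 22180 genes. The log2 values were fitted with limma 3.58.1 in R 4.3.3 (lmFit, eBayes, two-sided) on genotype alone, with Benjamini-Hochberg adjustment over all genes, and the pipeline was tested on simulated data. Mouse numbers differ between groups, so no mice were paired. Figures were drawn with matplotlib 3.10.9 in Python 3.11.15.

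The 10 genes and the lists of related, upstream, early and target genes were chosen with earlier results of these data known, and a list's count is a description. Named were the 10 genes, in each list up to 3 higher and 3 lower genes with the smallest p past the threshold, the 5 genes closest in profile to the largest rise and the largest fall (1 Gm-numbered or similar symbol skipped for each), Pfn1, Xist, Uty and defining markers, and the text marks any other gene as chosen with its values known. The alternatives added the probe sets without a single symbol, or used filters on dim genes, other scalings, the mean of probe sets, eBayes with trend and robust, array weights, an unadjusted p with 1.5-fold, and leaving out each mouse.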

Additional observations from a re-analysis of the deposited data

How the results depend on the processing

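No paired analysis was possible because the groups share no mouse number. Of 135 values of the 9 genes under alternatives, 123 kept their direction and side of the threshold, 7 passed it (6 of Egr2 and 1 of Fos) and 5 changed sign, all when a mouse was left out: Jun (-0.13 to 0.06 when 1 mouse was left out), Junb (-0.06 to 0.14, with -0.00 without Tie2-Cre mouse 1) and Jund (-0.02 to 0.14). The count of the 9 genes called lower, 0 at the outset, was 2 without the dimmest 33.3% of genes (fewer genes tested) and 1 each with centred arrays, with a minimum mean log2 of 5, with eBayes with trend and robust and with array weights, and 0 to 1 when a mouse was left out. None of the 9 was called higher under any of these alternatives. Of all genes, 634 to 903 were higher and 910 to 1253 lower when a mouse was left out, 609 and 899 with the added probe sets, and 424 and 551 with an unadjusted p and 1.5-fold. Related factors had 0 lower with the added probe sets, 1 lower with another quantile normalization or centred arrays, 1 higher and 0 lower with an unadjusted p and 1.5-fold, and 0 to 2 lower when a mouse was left out. Upstream genes had 0 lower with the added probe sets or an unadjusted p and 1.5-fold, 3 lower with a minimum mean log2 of 5, 2 higher and 4 lower without the dimmest 33.3% or with eBayes with trend and robust, and 0 to 1 lower when a mouse was left out. Regulators of Jun and Fos protein had 1 lower with eBayes with trend and robust. With an unadjusted p and 1.5-fold, AP-1 targets had 1 higher and 5 lower, and EGR targets 1 higher and 1 lower. The cause of these differences was not tested. EGR targets had 2 to 4 higher and 2 to 3 lower when a mouse was left out.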
